A study of Homo sapiens with 4 samples.

Results

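The RNA interference machinery was followed here through 10 genes, which were found by name among the 58051 genes listed in both deposited tables: DROSHA and DGCR8, which cut primary microRNA transcripts in the nucleus, DICER1, which cuts their hairpins and double-stranded RNA in the cytoplasm, the Argonautes AGO1, AGO2, AGO3 and AGO4, which carry the guide strand, and the scaffolds TNRC6A, TNRC6B and TNRC6C, which link an Argonaute to the enzymes that silence its target. All 10 passed the low-count filter. The cells were MCF10A, an established line of non-tumorigenic human breast epithelial cells, and poly(A) RNA was sequenced in 2 libraries after an siRNA against LMNA (siLMNA 1 and 2) and in 2 after one that targets bacterial LacZ as a control (siLacZ 1 and 2). LMNA encodes lamins A and C of the nuclear lamina. Cells of both groups were seeded at 350000 per well or dish, received siRNA at 50 nM with 4 uL of the lipid reagent RNAiMAX, were given fresh growth medium after 6 h and were collected at 48 h. Every library therefore came from cells that held an siRNA, a substrate of the Argonautes, and untransfected cells were not analysed here. The labels name no separate cultures, so that a p-value here reflects the spread between libraries, possibly technical, and nothing wider.

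In the microRNA pathway, a long primary transcript is cut by the Microprocessor (DROSHA bound to DGCR8) into a hairpin, exported, and cut by DICER1 into a short duplex, of which an Argonaute keeps the guide strand. An siRNA enters at the Argonaute step without the nuclear cuts. AGO2 is the human Argonaute best known for cleaving a fully paired target, while the TNRC6 scaffolds (GW182 proteins) act on partly paired targets by recruiting deadenylases.

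The knockdown and the cell type were checked before the members were read. LMNA had 2610 and 2496 counts in the siLMNA libraries, against 21443 and 24776 in the siLacZ libraries, and was 8.42-fold lower (log2 fold change -3.07, SE 0.077, edgeR quasi-likelihood adjusted p = 2.96e-15). The libraries held 44472819 and 44236621 counts after siLMNA and 42809595 and 46191091 after siLacZ, so that a limit of 3 counts corresponds to between 0.0649 and 0.0701 CPM, the count scaled to a common library size. Basal mammary epithelial markers were present in every library, with KRT5 between 5383 and 6149 CPM (8 of the 10 rose, KRT14 fell and KRT5 did not pass). Of 6 tested luminal markers 2 rose, of 4 tested endothelial markers 2 rose, and of 7 leukocyte markers the only tested one, CD14, rose (33.7 and 27.8 CPM in siLMNA, against 25.2 and 25.6 CPM in siLacZ, edgeR adjusted p = 0.0207). CD3E, which defines T cells, was at 0 in all 4 libraries, and PTPRC, which defines leukocytes, had 1 count in siLMNA 2 and 0 in the other libraries. Of 5 tested fibroblast markers (8 listed), 4 rose, and the summed level of the list was 765 and 767 CPM in siLMNA, against 175 and 178 CPM in siLacZ. That sum came mostly from the matrix protein gene DCN. COL1A1 also rose, to 130 and 122 CPM in siLMNA, against 12.9 and 12.7 CPM in siLacZ, while COL3A1 was at 0 in all 4 libraries. All 19 tested proliferation genes fell, with a summed level of 713 and 770 CPM in siLMNA, against 2158 and 2437 CPM in siLacZ. At an edgeR adjusted p under 0.05, the threshold of these marker counts, 26.5% of all tested genes rose and 27.8% fell. The part of these shifts in the results on the 10 members was not tested, and in bulk RNA fewer cells of a type cannot be told apart from less RNA per cell.

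Of the 10 members, 3 rose (AGO2, AGO4 and TNRC6C), 3 fell (DROSHA, TNRC6A and TNRC6B) and 4 did not pass the test (AGO1, AGO3, DICER1 and DGCR8), at an edgeR quasi-likelihood adjusted p under 0.05 over all 18540 tested genes. Log2 fold changes lay between -0.42 for DROSHA and 1.70 for AGO4. At this threshold 54.3% of all tested genes changed (26.5% higher and 27.8% lower), so that 6 of 10 is near the background. With upper-quartile scaling 5 members rose and 2 fell, while 5518 of all 18540 tested genes rose and 4575 fell. Without siLacZ 2 not all of the member calls held. The log2 fold changes were then 0.62 for AGO2, 1.86 for AGO4 and 0.59 for TNRC6C. They were -0.33 for DROSHA, -0.16 for TNRC6A and -0.37 for TNRC6B. With the main settings the median log2 fold change was 0.07 over the 10 members and -0.01 over all tested genes. Against a minimum change of 1.5-fold, AGO4 alone among the members passed, while 20.7% of all tested genes did (11.4% higher and 9.36% lower). The siLMNA and siLacZ values did not overlap for 8 members, the exceptions being AGO3 and DICER1, and for 76% of all tested genes. Of the 8, 5 were higher and 3 lower in siLMNA, against 37.3% and 38.8% of all tested genes.

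**Figure D1:**
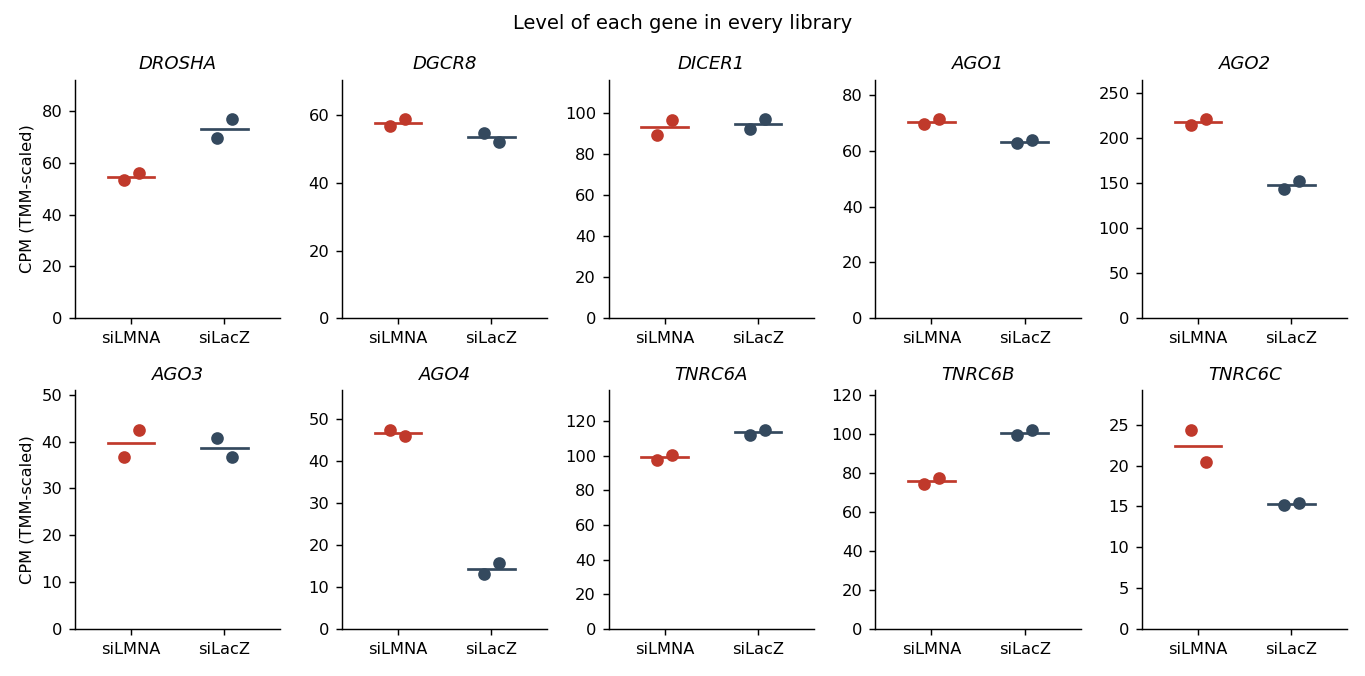
CPM of each of the 10 members in each library (points; siLMNA left of siLacZ; short line, mean of 2 libraries). AGO4 stands at 47.3 and 46.0 CPM in siLMNA, against 13.0 and 15.6 CPM in siLacZ, the largest ratio between groups among the members, while the points of DICER1 and AGO3 overlap between the groups.

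AGO4, an Argonaute that binds guide strands and lacks clear target cleavage, had the largest log2 fold change among the members. It had 2022 and 1979 counts in siLMNA and 581 and 740 counts in siLacZ, which correspond to 47.3 and 46.0 CPM in siLMNA and to 13.0 and 15.6 CPM in siLacZ. Both siLMNA libraries were above both siLacZ libraries, and the siLMNA libraries differed by less than the siLacZ libraries did. The mean was 46.7 ± 0.907 CPM in siLMNA and 14.3 ± 1.88 CPM in siLacZ (SD, n = 2 each), which is a 3.26-fold rise with a 95% interval of 2.83 to 3.74. The log2 fold change of 1.70 (SE 0.095) passed both thresholds (edgeR quasi-likelihood adjusted p = 1.07e-10, and 5.31e-09 against a minimum change of 1.5-fold). It ranked 1096 among the 18540 tested genes, with 94.1% of them at a smaller log2 fold change. In the authors' deposited tables, which compare 1 siLMNA with 1 siLacZ library each, the log2 fold change of AGO4 was 1.86 in pair 1 and 1.5 in pair 2. That of LMNA, the target, was -2.98 and -3.23. These comparisons have no replicates, so only their sizes are given.

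AGO2, the Argonaute that cleaves paired targets, rose by less. Its level was 214 and 221 CPM in siLMNA, against 144 and 153 CPM in siLacZ, with no overlap between the groups. This is a 1.47-fold rise (log2 fold change 0.56, SE 0.069, 95% interval 0.41 to 0.70, edgeR quasi-likelihood adjusted p = 2.46e-06). It did not pass against a minimum change of 1.5-fold (adjusted p = 0.884). The authors' deposited table gave 0.57 in pair 1 and 0.48 in pair 2 on the log2 scale.

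AGO1 and AGO3, the neighbours of AGO4 on chromosome 1, did not pass the test. AGO1 was at 69.5 and 71.2 CPM in siLMNA, against 62.8 and 63.7 CPM in siLacZ. The groups of AGO1 did not overlap, yet the log2 fold change of 0.15 (SE 0.071) missed the threshold (edgeR quasi-likelihood adjusted p = 0.0781). With upper-quartile scaling AGO1 did pass (log2 fold change 0.22, edgeR adjusted p = 0.0123). AGO3 was at 36.7 and 42.4 CPM in siLMNA, against 40.8 and 36.6 CPM in siLacZ. Its groups overlapped, siLMNA 2 and siLacZ 1 being the higher libraries, and its log2 fold change was 0.03 with a 95% interval of -0.15 to 0.22 (edgeR adjusted p = 0.788). These intervals allow a rise of at most 1.23-fold for AGO1 and 1.16-fold for AGO3, both under the lower bound of 2.83-fold for AGO4.

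**Figure D2:**
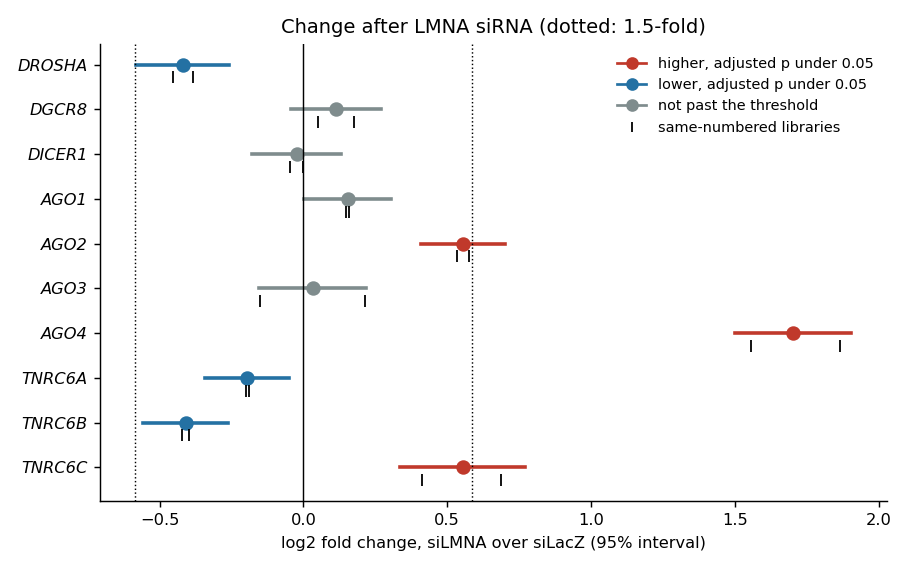
Log2 fold change of each member, siLMNA over siLacZ, with its 95% interval (bars) and the value of each same-numbered pair of libraries (ticks); dotted lines mark a change of 1.5-fold. AGO4 at 1.70 is the only member whose interval lies wholly outside the dotted lines, and the interval of DICER1, -0.18 to 0.13, spans 0.

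Expressed per kilobase of exon, the 4 Argonautes shifted in their proportions. The share of AGO4 in the summed CPM per kilobase of the family was 24.3% and 23.1% in siLMNA, against 10.3% and 11.9% in siLacZ, a gain of 12.6 percentage points. AGO1 held 18.7% in each siLMNA library, against 26.1% and 25.4% in the siLacZ libraries, although its own level was not lower. AGO2 held the largest share in every library, at 50.5% and 50.9% in siLMNA and at 52.4% and 53.2% in siLacZ. AGO3 held 6.48% and 7.31% in siLMNA, against 11.1% and 9.56% in siLacZ. No share overlapped between the groups, but the shares add up to a fixed total, so a gain of AGO4 lowers the others. In CPM AGO2 rose and AGO3 overlapped between the groups, although both shares were lower in siLMNA. No test was run on the shares, since the smallest exact two-sided permutation p for 2 against 2 libraries is 0.333. The ratio of AGO4 to AGO1 per kilobase was 1.30 and 1.23 in siLMNA, against 0.396 and 0.469 in siLacZ. Summed over the 4 genes, Argonaute RNA was 368 and 381 CPM in siLMNA, against 260 and 268 CPM in siLacZ, a ratio of 1.42. This CPM ratio stayed between 1.32 and 1.48 under the 4 scalings tried. Without AGO4 it was 1.31 with TMM scaling and between 1.22 and 1.37 under those scalings. Per kilobase of exon the ratio of the family sums was 1.53.

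**Figure D3:**
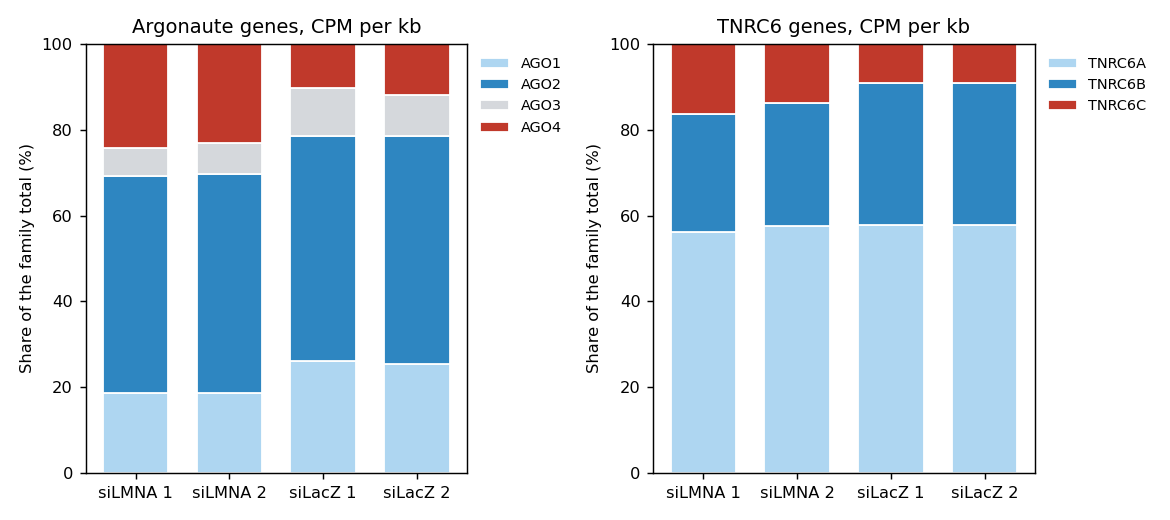
Share of each gene in the summed CPM per kilobase of exon of its family, in percent, for the 4 Argonautes and the 3 TNRC6 genes in each library (siLMNA left, siLacZ right). The AGO4 share is 24.3% and 23.1% in siLMNA, against 10.3% and 11.9% in siLacZ, and the TNRC6C share is 16.3% and 13.7%, against 9.06% and 9.03%.

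AGO4, AGO1 and AGO3 lie head to tail on the plus strand of chromosome 1 (GRCh38; AGO4 at chr1:35808172-35857890, AGO1 at chr1:35869808-35930528, AGO3 at chr1:35930718-36072500). The gap between AGO4 and AGO1 is 11917 bases, and that between AGO1 and AGO3 is 189 bases. AGO4 thus rose beside neighbours of its own family that did not pass the test. Within 200 kb of the 3 genes, 11 genes were tested, these 3 included. Of the other 8, COL8A2 and MAP7D1 rose, PSMB2, C1orf216, CLSPN and THRAP3 fell, and ADPRHL2 and TRAPPC3 did not pass. Over all tested genes 26.5% rose and 27.8% fell, so mixed calls are not particular to this window. CLSPN, which encodes the replication checkpoint adaptor claspin and starts upstream of AGO4 on the opposite strand, was at 10.2 and 10.4 CPM in siLMNA, against 25.6 and 29.9 CPM in siLacZ (log2 fold change -1.43, edgeR adjusted p = 3.27e-09). COL8A2, a collagen gene, had the widest rise in that window (log2 fold change 2.51) on only 13 and 20 counts in siLMNA, against 4 and 2 in siLacZ.

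**Figure D4:**
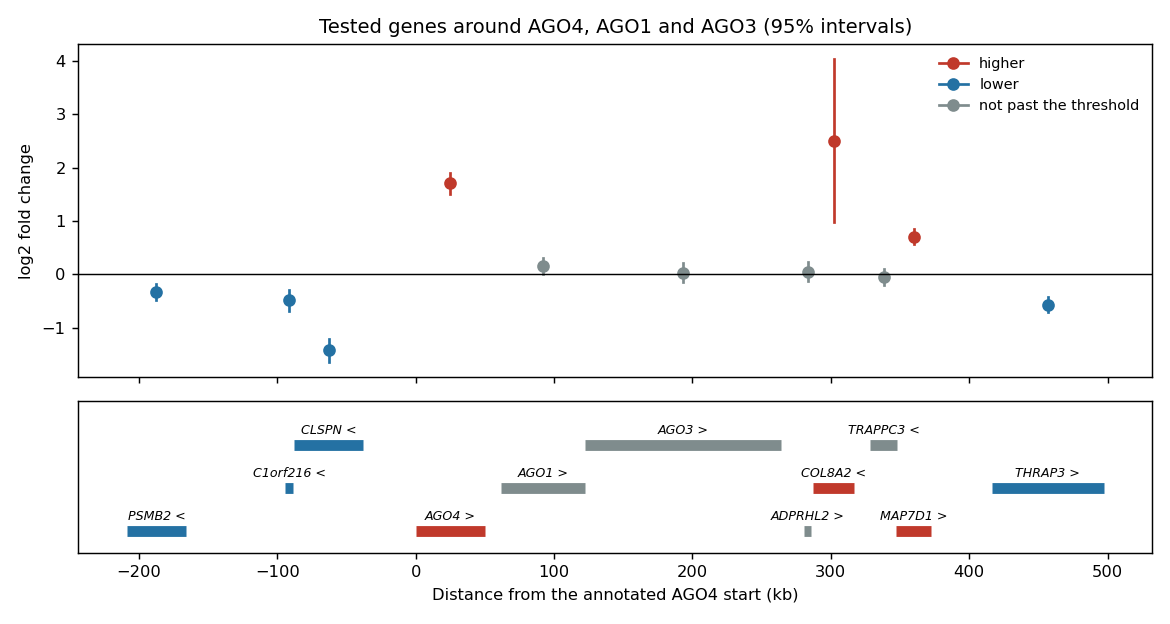
Log2 fold change of the 11 tested genes within 200 kb of AGO4, AGO1 and AGO3, siLMNA over siLacZ, with 95% intervals (upper panel), above the span of each gene (lower panel; > plus strand, < minus strand), plotted against distance from the annotated AGO4 start in kb. AGO4 at 1.70 stands next to AGO1 at 0.15 and AGO3 at 0.03, with CLSPN at -1.43 on its other side.

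The promoters of AGO4 and AGO1 are shown to compare these neighbours, and those of DROSHA and TNRC6B as members that fell. Each is 300 bases from RefSeq (GRCh38.p14) with the RefSeq transcription start at base 251, written 5′ to 3′, and capitals mark the CCAAT box letters on either strand (CCAAT or ATTGG). The AGO1 window lies inside the GENCODE span of AGO1 given above, so its RefSeq start is downstream of the GENCODE gene start.
AGO4 promoter, chr1:35807766-35808065, plus strand: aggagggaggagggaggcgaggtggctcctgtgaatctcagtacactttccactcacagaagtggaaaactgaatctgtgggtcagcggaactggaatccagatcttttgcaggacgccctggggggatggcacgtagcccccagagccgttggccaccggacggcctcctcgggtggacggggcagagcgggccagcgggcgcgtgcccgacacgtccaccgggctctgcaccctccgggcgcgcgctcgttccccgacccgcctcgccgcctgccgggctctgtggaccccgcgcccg
AGO1 promoter, chr1:35882959-35883258, plus strand: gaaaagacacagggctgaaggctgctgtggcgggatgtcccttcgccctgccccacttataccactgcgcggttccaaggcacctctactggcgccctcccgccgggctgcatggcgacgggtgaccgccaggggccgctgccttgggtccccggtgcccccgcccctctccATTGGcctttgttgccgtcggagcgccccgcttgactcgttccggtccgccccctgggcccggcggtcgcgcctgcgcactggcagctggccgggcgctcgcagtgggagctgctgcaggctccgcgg
DROSHA promoter, chr5:31532044-31532343, minus strand: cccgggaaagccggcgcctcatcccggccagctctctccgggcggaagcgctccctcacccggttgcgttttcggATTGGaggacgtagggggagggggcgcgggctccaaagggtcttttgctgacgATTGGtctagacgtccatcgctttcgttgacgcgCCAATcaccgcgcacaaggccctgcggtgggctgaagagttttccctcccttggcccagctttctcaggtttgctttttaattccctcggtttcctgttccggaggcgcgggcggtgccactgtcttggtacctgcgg
TNRC6B promoter, chr22:40044584-40044883, plus strand: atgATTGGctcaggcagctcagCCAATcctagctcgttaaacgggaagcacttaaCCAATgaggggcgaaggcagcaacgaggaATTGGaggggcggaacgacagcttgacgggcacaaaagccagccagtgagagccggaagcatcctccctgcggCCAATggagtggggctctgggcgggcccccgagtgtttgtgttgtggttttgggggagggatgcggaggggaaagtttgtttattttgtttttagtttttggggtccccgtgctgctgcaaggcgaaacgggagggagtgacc
The AGO4 window held no CCAAT on either strand, the AGO1 window 1, the DROSHA window 3 and the TNRC6B window 5. In the windows not printed, AGO3 held 0, TNRC6A 1 and DGCR8 4. TNRC6C has 4 windows in the table, of which 1 held 2 and the others 0, and DICER1 has 5, of which 2 held 1 each and the others 0. Of 35116 RefSeq promoters of this length, 34.6% held at least 1. The AP-1 site TGANTCA (7.71% of promoters), the TEAD site GGAATG (14.0%) and the letters TTTGAA (15.2%), searched on both strands, occurred in none of the 4 printed windows. One DICER1 window held 1 of each, and of the TNRC6C windows 1 held GGAATG and 2 held TTTGAA. The CpG count was 29 in AGO4, 30 in AGO1, 28 in DROSHA and 15 in TNRC6B, against a median of 14 over all promoters. These matches were searched after the expression values were known, and they describe letters, not binding. The RefSeq table has an entry for 9 of the 10 members.

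Of the Microprocessor pair, DROSHA fell and DGCR8 did not pass the test, and the difference between them was not tested. DROSHA, its RNase III enzyme, was at 53.3 and 56.1 CPM in siLMNA, against 69.6 and 76.8 CPM in siLacZ. Both siLMNA libraries were below both siLacZ libraries, a 1.34-fold fall (log2 fold change -0.42, SE 0.077, edgeR quasi-likelihood adjusted p = 0.000161). Without siLacZ 2, the higher control library, the log2 fold change was -0.33 and the call was lost (adjusted p = 0.0547). DGCR8, the RNA-binding partner that positions DROSHA, was at 56.8 and 58.8 CPM in siLMNA, against 54.8 and 52.0 CPM in siLacZ. Its groups did not overlap, but its log2 fold change of 0.11 (95% interval -0.04 to 0.27) did not pass (edgeR adjusted p = 0.212). Under upper-quartile scaling DGCR8 passed (log2 fold change 0.18, edgeR adjusted p = 0.0456). Per kilobase of exon, the ratio of DROSHA to DGCR8 was 0.882 and 0.898 in siLMNA, against 1.19 and 1.39 in siLacZ, so that DROSHA RNA lay below DGCR8 RNA in both siLMNA libraries and above it in both siLacZ libraries. With the longest transcript in place of all exons the order of the group means was the same, at 10.3 CPM per kilobase for DROSHA and 12.3 for DGCR8 in siLMNA, against 13.8 for DROSHA and 11.4 for DGCR8 in siLacZ.

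DICER1, the cytoplasmic RNase III enzyme, showed no change that the 4 libraries could resolve. It was at 89.4 and 96.9 CPM in siLMNA, against 92.4 and 96.9 CPM in siLacZ. The groups overlapped, and replicates within a group differed by more than the group means. The log2 fold change was -0.02 with a 95% interval of -0.18 to 0.13 (edgeR adjusted p = 0.808), which leaves room for a fall of up to 1.13-fold or a rise of up to 1.09-fold. DICER1-AS1, an antisense gene whose span overlaps that of DICER1 by 366 bases, had 133 and 105 counts in siLMNA and 128 and 105 in siLacZ. The strand setting of the counting is not given, so reads of the shared stretch cannot be assigned to either gene with certainty.

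The 3 TNRC6 scaffolds, which hold an Argonaute on one side and the deadenylases on the other, changed in opposite directions. TNRC6B fell to 74.3 and 77.4 CPM in siLMNA, against 99.6 and 102 CPM in siLacZ (log2 fold change -0.41, SE 0.071, edgeR adjusted p = 9.08e-05, 1.33-fold lower). TNRC6A was at 97.6 and 100.5 CPM in siLMNA, against 112 and 115 CPM in siLacZ, again with no overlap between the groups. The fall of TNRC6A was small (log2 fold change -0.19, SE 0.069, edgeR adjusted p = 0.0246). It did not pass with DESeq2 (adjusted p = 0.0534), with upper-quartile scaling (adjusted p = 0.130) or without any 1 of the 4 libraries (adjusted p between 0.0524 and 0.151).

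TNRC6C, the least abundant of the 3 per kilobase, rose to 24.3 and 20.5 CPM in siLMNA, against 15.1 and 15.4 CPM in siLacZ. The siLMNA libraries spread more widely than the siLacZ libraries, but both were above them (log2 fold change 0.55, SE 0.10, 95% interval 0.34 to 0.77, edgeR adjusted p = 0.000197). Without siLacZ 1 or without siLacZ 2 the call was lost, at adjusted p-values of 0.0625 and 0.0658 and log2 fold changes of 0.53 and 0.59. TNRC6C-AS1, on the opposite strand with a span that overlaps by 1438 bases, had 24 and 19 counts in siLMNA, against 2 and 2 in siLacZ, while TNRC6C itself had 1040 and 881 counts in siLMNA, against 676 and 729 in siLacZ. The share of TNRC6C in the summed CPM per kilobase of the 3 scaffolds was 16.3% and 13.7% in siLMNA, against 9.06% and 9.03% in siLacZ, and that of TNRC6B was 27.6% and 28.7% in siLMNA, against 33.2% in each siLacZ library. TNRC6A kept between 56.1% and 57.8% in all 4 libraries. The family sum was 196 and 198 CPM in siLMNA, against 227 and 232 CPM in siLacZ, a ratio of 0.860 (0.804 to 0.902 under the 4 scalings).

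Levels of the members relative to each other were read per kilobase of exon. In siLMNA the order of mean CPM per kilobase was AGO2 (13.8), DGCR8 (7.90), TNRC6A (7.66), DICER1 (7.57), DROSHA (7.03), AGO4 (6.42), AGO1 (5.07), TNRC6B (3.79), TNRC6C (2.02) and AGO3 (1.87). DGCR8, TNRC6A and DICER1 overlapped in their library values, as did TNRC6C and AGO3, so those neighbours cannot be ordered. In siLacZ the order was DROSHA (9.41), AGO2 (9.36), TNRC6A (8.77), DICER1 (7.70), DGCR8 (7.30), TNRC6B (5.04), AGO1 (4.55), AGO4 (1.97), AGO3 (1.83) and TNRC6C (1.37). There DROSHA and AGO2 overlapped, as did AGO4 and AGO3. AGO4 therefore stood at the level of AGO3 in siLacZ and above AGO1 in siLMNA. With the longest transcript as the length, AGO2 was the fourth in siLacZ, at 10.2 CPM per kilobase behind DROSHA, TNRC6A and DGCR8, and the first in siLMNA at 14.9. Among 18451 tested genes with a length, 68.0% were below AGO4 in siLMNA, against 45.8% in siLacZ.

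The 5 genes whose profile over the 4 libraries lay nearest to that of AGO4, by Euclidean distance between mean-centred log2 CPM among 4752 genes of like level, were CTSO (distance 0.0426), FHOD3 (0.0535), RAB31 (0.0729), MICAL1 (0.0933) and BICC1 (0.102). They encode a cathepsin, a formin, a Rab GTPase, an actin-oxidising enzyme and an RNA-binding protein. CTSO, the nearest, was at 25.3 and 25.6 CPM in siLMNA, against 6.998 and 8.414 CPM in siLacZ. With 4 libraries in 2 groups, any gene with a similar fold change comes near, and the distance is a description.

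The rest of the pathway was read from lists of its steps, beside the members. Of 28 tested genes of microRNA biogenesis and export (30 listed), 6 rose and 19 fell, with a median log2 fold change of -0.28, against -0.01 over all genes. That is 21.4% higher and 67.9% lower, against 26.5% and 27.8% of all tested genes. Most of these changes were small. Against a minimum change of 1.5-fold, 0 of the 28 rose and 1 fell, while 11.4% and 9.36% of all tested genes did. RAN, the GTPase that drives export of the hairpin, was at 365 and 360 CPM in siLMNA, against 604 and 606 CPM in siLacZ (log2 fold change -0.74). XPO5, the exportin of microRNA hairpins, fell with DROSHA (log2 fold change -0.34, edgeR adjusted p = 0.000756), as did XPO1 (-0.70) and ERH, a dimeric partner of DGCR8 (-0.65). XPO5 is named outside the rule, after its value was seen. ADARB1, an RNA-editing enzyme, ZCCHC11 (TUT4), which adds uridines to microRNA precursors, and BCDIN3D, a methyltransferase, rose, with log2 fold changes of 0.58, 0.58 and 0.49.

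Of 25 tested genes of Argonaute loading and turnover (26 listed), 8 rose and 13 fell (median log2 fold change -0.18), which is 32% higher and 52% lower, against 26.5% and 27.8% of all tested genes. The chaperone HSP90AA1, which holds Argonautes open for loading, was at 1230 and 1322 CPM in siLMNA, against 2298 and 2166 CPM in siLacZ (log2 fold change -0.81), and its cofactors FKBP5 and AHSA1 fell by 1.14 and 0.71 on the log2 scale. WTIP, an Ajuba-family LIM protein, rose with AGO4 and AGO2 (log2 fold change 1.72). Of its family in the same list, named outside the rule, LIMD1 did not pass (-0.14) and AJUBA rose by less (0.25). The collagen prolyl hydroxylase gene P4HA1, whose product also hydroxylates AGO2, rose too (log2 fold change 0.76). Among 20 tested genes of deadenylation, the step that TNRC6 recruits, 4 rose and 10 fell (median -0.17), which is 20% higher and 50% lower, against the same 26.5% and 27.8%. Against a minimum change of 1.5-fold, 3 loading genes rose and 2 fell, and 2 deadenylation genes rose and 0 fell. Of all tested genes, 11.4% rose and 9.36% fell in that test. The antiproliferative deadenylation cofactors BTG2 (log2 fold change 1.00), BTG1 (0.87) and BTG3 (0.58) rose, and CNOT10 (-0.68), PABPC4 (-0.56) and PAN2 (-0.49) fell. TOB1 and TOB2, cofactors of the same list named outside the rule, did not rise. TOB1 fell (log2 fold change -0.37) and TOB2 did not pass (-0.01).

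Of 34 tested decapping, decay and P-body genes, 6 rose, 9 fell and 19 did not pass, so that 44.1% changed, against 54.3% of all tested genes. Against a minimum change of 1.5-fold, 1 of the 34 rose and 5 fell. ZFP36L1 (log2 fold change 1.45) and ZFP36 (0.44), which bring deadenylases to AU-rich messages without an Argonaute, rose with DCP2 (0.60), the decapping enzyme. LSM2 (-1.31), LSM5 (-1.05) and LSM6 (-1.04) of the Lsm ring fell, a ring that also serves splicing. LSM1 of the same list, named outside the rule, did not pass (log2 fold change -0.02, edgeR adjusted p = 0.912). In the germline PIWI and piRNA list, 7 of 15 genes were tested, 3 rose and 2 fell. That is 42.9% higher and 28.6% lower on few genes, against 26.5% and 27.8% of all tested genes. PIWIL1 and PIWIL3 had 0 counts in all 4 libraries, and PIWIL2 was at 1.497 and 1.953 CPM in siLMNA, against 0.268 and 0.465 CPM in siLacZ. TDRD9, a piRNA helicase gene, had the largest fall in the list, with 12 and 8 counts in siLMNA, against 81 and 77 in siLacZ (log2 fold change -2.87, edgeR adjusted p = 1.08e-05). The PIWI and piRNA genes lie under the level at which other lists' genes are named, and were named after their values were seen.

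**Figure D5:**
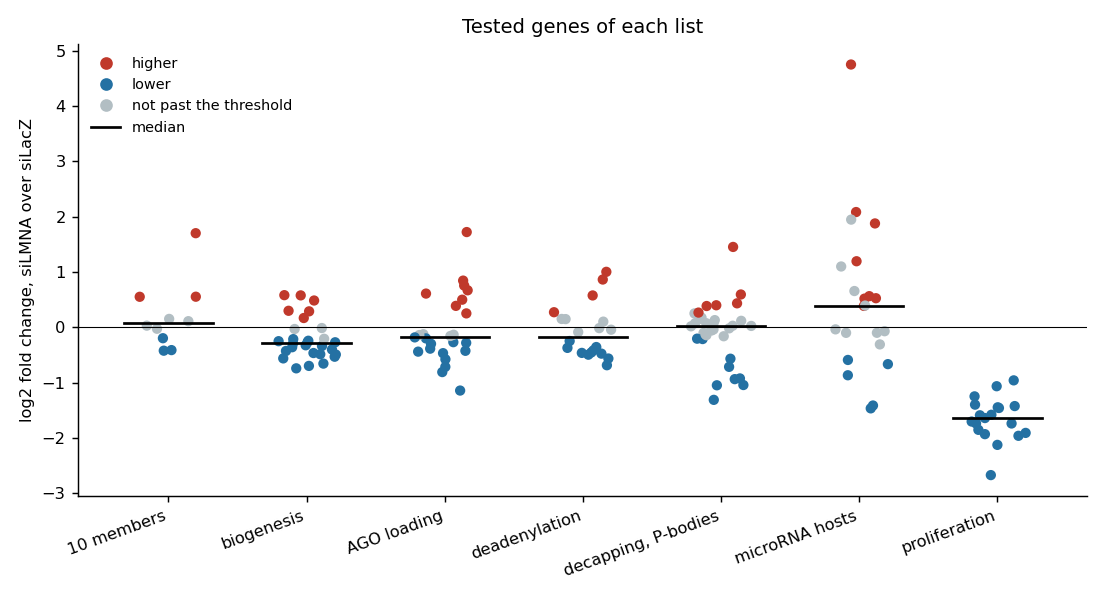
Log2 fold change of each tested gene (points, coloured by direction past the threshold) siLMNA over siLacZ, for the 10 members, the lists of pathway steps, the microRNA host genes and the proliferation genes; black lines mark list medians. The biogenesis median lies at -0.28 and the host gene median at 0.39, 19 of 34 decapping points did not pass, and all 19 proliferation points lie below 0.

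Host transcripts of microRNAs, which are polyadenylated substrates of DROSHA, changed in both directions. Of 50 genes with a host name in the tables, 22 were tested, of which 8 rose, 5 fell and 9 did not pass (median log2 fold change 0.39). The share that changed, 59.1%, is near the 54.3% of all tested genes. Not all of these calls held without siLacZ 2. Mature microRNAs carry no poly(A) tail and were not measured, so that the sequences below stand for what these hosts encode and not for measured RNA. They are mature sequences from RefSeq (GRCh38.p14), 5′ to 3′, with the seed (bases 2 to 8, which pairs with targets in the Argonaute) in capitals.
hsa-miR-22-3p: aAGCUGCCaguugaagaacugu
hsa-miR-100-5p: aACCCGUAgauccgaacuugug
hsa-let-7a-5p: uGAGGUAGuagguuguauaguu
hsa-miR-125b-5p: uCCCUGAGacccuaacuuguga
hsa-miR-503-5p: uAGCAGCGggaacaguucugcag
hsa-miR-205-5p: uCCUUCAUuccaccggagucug
hsa-miR-17-5p: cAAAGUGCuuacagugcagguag
hsa-miR-20a-5p: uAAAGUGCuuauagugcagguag
MIR22HG, the host of miR-22-3p, rose to 56.7 and 59.5 CPM in siLMNA, against 27.0 and 23.7 CPM in siLacZ (log2 fold change 1.196, edgeR adjusted p = 1.97e-09). MIR100HG, whose span holds miR-100-5p, let-7a-5p and miR-125b-5p, was at 50.5 and 55.7 CPM in siLMNA, against 37.9 and 35.7 CPM in siLacZ (log2 fold change 0.53). MIR4435-2HG rose by a like amount (log2 fold change 0.56).

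MIR205HG, the host of miR-205-5p, an epithelial microRNA, fell to 205 and 197 CPM in siLMNA, against 313 and 291 CPM in siLacZ (log2 fold change -0.59). MIR4697HG (-1.46) and MIR4458HG (-0.66) also fell. A pair of low hosts was named after their values were seen. MIR503HG had 322 and 362 counts in siLMNA, against 14 and 13 in siLacZ (log2 fold change 4.75), and MIR17HG, the host of the miR-17 cluster, had 69 and 71 counts in siLMNA, against 240 and 158 in siLacZ (-1.41). In the sequences above, miR-17-5p and miR-20a-5p share the seed AAAGUGC, and both lie in MIR17HG. The 13 hosts that changed hold 46 mature microRNA names within their spans.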

How the data were processed

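Poly(A) RNA was measured in 4 libraries. The authors deposited 2 tables, each of 1 siLMNA and 1 siLacZ library, with raw read counts per gene per the file headers. The deposited normalized values are a signal, each count multiplied by a constant of its library. The deposited log2 fold changes, and their standard errors and statistics (scores), come from the authors' comparison of each pair, which has no replicates, as do the deposited p-values. Of the columns, 3 have no name and were not used. The files use hg38 coordinates, per the submitters' processing notes. Not given in the sources used here are the aligner, counter, annotation, strand setting and treatment of reads that match several paralogs.

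Counts were tested with edgeR 4.0.16 in R 4.3.3 (TMM scaling, filterByExpr, quasi-likelihood test, group as the only term, Benjamini-Hochberg adjustment over 18540 tested genes, threshold 0.05). A further test took a minimum change of 1.5-fold as its null. CPM are TMM-scaled. Each SE was taken as the absolute log2 fold change over the root of F. In 6 genes (CDH1, TWIST1, CCNB1, ZEB1, CLDN1 and OCLN) the count and the normalized value contradict each other at a relative tolerance of 1e-06, and these were left out, none being a member. They hold between 0.0602% and 0.447% of the counts of a library. Coordinates and exon lengths come from GENCODE 29 (57447 of 58051 identifiers matched). Depth was 42809595 to 46191091 counts per library, and intervals and floors cover counting error only where they are drawn from counts of 1 library.

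The members and all lists were chosen with earlier results of these data known. All 10 members are named, with LMNA. Of each list, up to 3 genes per direction are named that passed at a mean of at least 5 CPM, by size of log2 fold change, and the 5 nearest profiles to the member with the smallest adjusted p among genes within 2-fold of its level. Some genes that the rule names are not reported here. Alternatives were DESeq2 1.42.0, upper-quartile or no scaling factors, no low-count filter, the 6 genes kept, the minimum change, a replicate block, each library left out, and the longest transcript as length.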

Additional observations from a re-analysis of the deposited data

How the results depend on the processing

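Alternatives covered DESeq2, scaling, the low-count filter, the 6 contradicting genes, the minimum change, the replicate block and each library left out. For the 10 members and LMNA, 99 of the resulting values kept direction and side of the threshold, 14 lost the call, 2 gained it and 6 changed sign. AGO4 kept its call in all, with log2 fold changes between 1.56 and 1.86, and AGO2 kept its call in all but the test of a minimum change, between 0.46 and 0.62. The sign changes were in members whose change was not past the threshold. AGO3 was at -0.0657 with library totals only and between -0.0767 and 0.131 with 1 library left out (below 0 without siLMNA 2 or siLacZ 2). DICER1 was at 0.0452 with upper-quartile scaling and between -0.0847 and 0.0319 with 1 library left out (above 0 without siLMNA 1 or siLacZ 2). Against a minimum change of 1.5-fold, 2111 genes rose and 1735 fell, 1 member rose and 0 fell, 9 genes of the other lists rose and 9 fell, and 4 host genes rose and 2 fell. Upper-quartile scaling gave 5 members and 5518 of all tested genes higher. It moved the median of all genes to 0.06, against -0.11 with library totals only. Leaving out 1 library gave 3182 to 4283 genes higher and 3121 to 4696 lower, 2 to 3 members higher and 1 to 2 lower, 20 to 25 list genes higher and 39 to 51 lower, and 5 to 8 host genes higher and 4 to 5 lower; the left-out arm then has 1 library, assumed to vary like the other group. With siLacZ 2 left out the counts of all genes were 3182 and 3121, the lowest. With the longest transcript as length, the TNRC6B share changed by -4.06 percentage points, against -5.03 with all exons. Libraries of the same number did not deviate together (correlation -0.03), and with the number as a replicate block 4870 genes rose and 5092 fell, and 3 members rose and 3 fell. The cause of the lost and gained calls was not tested. The lowest count of a member in a library was 581 (AGO4, siLacZ 1), against 2 for COL8A2, and the part of depth in these changes was not tested.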
